A study of Saccharomyces cerevisiae with 60 samples.

Results

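The HSP30 family of budding yeast (Saccharomyces cerevisiae) has 3 genes, HSP30 (YCR021C), MRH1 (YDR033W) and YRO2 (YBR054W). All 3 were found by systematic name among the 7126 features with deposited read counts, and all 3 passed the filter on low counts that left 6070 genes tested. Their mRNAs were followed in 60 poly(A) RNA libraries, with 3 libraries for every pairing of 4 strain states with 5 temperature conditions (20 groups). Every strain was W303 carrying an Hsf1 anchor-away system, in which rapamycin ties tagged Hsf1 to a protein outside the nucleus. The -hsf1/msn2Δ/msn4Δ cultures lacked MSN2 and MSN4 and received rapamycin in DMSO, and the msn2Δ/msn4Δ cultures had the same deletions and received DMSO alone. The -hsf1 cultures kept both genes and received rapamycin in DMSO, and the wildtype cultures kept both genes and received DMSO alone. All grew at 25 °C in rich medium with adenine, and were sampled there or after 10 or 30 min at 37 °C or 42 °C. No strain without the anchor was given rapamycin, so an effect of the drug and an effect of Hsf1 loss cannot be told apart.

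The family's proteins cross the membrane several times and are related in sequence to the opsins. Hsp30 sits in the plasma membrane, is induced by heat, weak acids and other membrane stress, and restrains Pma1, the proton pump that sets the membrane potential and uses much of the cell's ATP. Mrh1 and Yro2 are a pair left by the ancient yeast genome duplication. Mrh1 is a plasma membrane protein, and Yro2 is best known for its part in tolerance to acetic acid, where the activator Haa1 induces it. Hsf1 drives chaperone genes through heat shock elements, and Msn2 and Msn4 drive general stress genes through the stress response element.

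The genes lie far apart (build R64). HSP30 is on chromosome III at 156109-157107 on the minus strand, MRH1 on chromosome IV at 508147-509109 on the plus strand, and YRO2 on chromosome II at 343101-344135 on the plus strand. Each is counted over 1 uninterrupted coding region, of 999 bases for HSP30, 963 for MRH1 and 1035 for YRO2, and none overlaps another counted feature. The coding sequences of MRH1 and YRO2 were identical at 77.6% of 948 aligned bases, those of HSP30 and YRO2 at 66.6% of 906, and those of HSP30 and MRH1 at 66.6% of 891. The longest identical run was 32 bases between MRH1 and YRO2 and 12 bases in both other pairs. No stretch of 50 bases, the read length, occurred elsewhere in the genome for any of the 950 such stretches of HSP30, 914 of MRH1 and 986 of YRO2.

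Upstream DNA is shown because the members differed in which comparisons between strain states were called. Each stretch is 200 bases long and begins 300 bases before the start codon in the R64 genome, written 5′ to 3′ on the gene's strand. The last 100 bases, which can hold transcribed leader, are not shown. HSP30 is at chrIII:157208-157407, read on the minus strand, MRH1 at chrIV:507847-508046 and YRO2 at chrII:342801-343000, both on the plus strand.
HSP30: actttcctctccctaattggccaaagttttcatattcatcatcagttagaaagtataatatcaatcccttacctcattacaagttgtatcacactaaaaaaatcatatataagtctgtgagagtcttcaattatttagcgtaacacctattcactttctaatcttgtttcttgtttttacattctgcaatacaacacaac
MRH1: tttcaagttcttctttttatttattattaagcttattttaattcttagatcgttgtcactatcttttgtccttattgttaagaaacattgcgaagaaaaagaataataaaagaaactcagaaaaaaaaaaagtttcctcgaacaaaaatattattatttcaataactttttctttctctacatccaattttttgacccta
YRO2: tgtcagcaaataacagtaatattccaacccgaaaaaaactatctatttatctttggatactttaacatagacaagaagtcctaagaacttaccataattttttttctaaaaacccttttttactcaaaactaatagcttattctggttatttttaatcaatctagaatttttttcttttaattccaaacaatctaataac

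Fixed motifs were searched on both strands in the 300 bases before each start codon. The heat shock element was written as 3 units (TTCNNGAANNTTC) or as 2 units (GAANNTTC or TTCNNGAA, each of which overlaps the longer form), the stress response element as AGGGG, and the Haa1 core as GAGGGG, which contains AGGGG. None of these 5 strings occurred in the 300 bases of any of the 3 members. In all 6001 windows of that length the shares with a match were 0.867%, 11.5%, 13.1%, 22.2% and 5.33% in the order named. In 500 bases, where 21.2% of 6000 windows hold TTCNNGAA, MRH1 had 1 match at -479 to -472. In 1000 bases, where 55% of windows hold AGGGG, YRO2 had 1 match at -536 to -532, on the opposite strand. In 1500 bases TTCNNGAA is in 52.3% of windows and AGGGG in 67.6%. There HSP30 had its first match, to TTCNNGAA, at -1266 to -1259, and MRH1 had an AGGGG match at -1152 to -1148. The counted gene YCR022C lies 313 bases upstream of HSP30 on the same strand. HSP30 windows of 500 bases and more therefore reach into that gene. Windows of 1000 and 1500 bases were added after the shorter ones had been read. The nearest match of each member is shown with 20 bases on each side, the matched letters in capitals; these are letters in a window and say nothing of binding.
HSP30, TTCNNGAA, chrIII:158346-158393, minus strand: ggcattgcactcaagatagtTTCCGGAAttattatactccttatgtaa
MRH1, TTCNNGAA, chrIV:507648-507695, plus strand: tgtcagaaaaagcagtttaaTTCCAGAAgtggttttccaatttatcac
YRO2, AGGGG read as CCCCT, chrII:342545-342589, plus strand: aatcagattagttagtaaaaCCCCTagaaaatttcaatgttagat

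The libraries held 3848210 to 10142858 counts (median 5938357). Levels are given as CPM, which are counts divided by the TMM-scaled size of the library. TMM is a method that equalizes the bulk of genes between libraries. In this paragraph the CPM of MSN2, MSN4 and the mating-type genes use the unscaled library total instead. MSN2 reached at most 0.381 CPM in the 30 libraries of the deleted strain, against 99.8 to 272.6 CPM in the 30 intact libraries. MSN4 reached at most 1.71 CPM in the deleted strain, against 64.5 to 458.1 CPM in the intact strain. HSF1 mRNA is no check on a depletion of the protein. Summed CPM of 4 alpha-specific genes was 69.9 to 2534 and that of 5 a-specific genes 9.44 to 296. Of the a-specific genes, STE2 had medians of 25.2 and 41.8 CPM in the intact and deleted libraries, and BAR1 6.23 and 10.8 CPM. The medians of MFA1, MFA2 and AGA2 were at most 0.996 CPM. Whether replicates are separate cultures is not said in the labels. The p-values speak only for the spread among these samples, and that spread may be technical. The names of the count tables put the intact and the deleted libraries in different sets, so every comparison across the MSN2 and MSN4 deletions and the library set cannot be told apart. The 5 libraries farthest from their own groups over all genes were replicate 2 of -hsf1/msn2Δ/msn4Δ at 25 °C and after 30 min at 37 °C, replicate 1 of msn2Δ/msn4Δ after 10 min at 42 °C, replicate 1 of -hsf1 at 25 °C, and replicate 3 of wildtype after 10 min at 37 °C. In whole cultures, fewer cells with an mRNA and less of it per cell cannot be told apart either.

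HSP30 was barely present at 25 °C and rose to between 1656 and 17282 CPM after 30 min at 42 °C in 3 of the 4 strain states. In -hsf1/msn2Δ/msn4Δ cells its highest level was 54.4 CPM. At 25 °C it had 1.34, 2.9 and 3.68 CPM in -hsf1/msn2Δ/msn4Δ cells, 1.23, 1.43 and 2.71 CPM in msn2Δ/msn4Δ cells, 11.3, 1.9 and 2.6 CPM in -hsf1 cells, and 1.91, 3.43 and 2.29 CPM in wildtype cells. These values overlapped among all 4 states, and the first -hsf1 library stood above the other 11. After 30 min at 42 °C it had 27.8, 23.2 and 54.4 CPM in -hsf1/msn2Δ/msn4Δ cells. It had 3276, 1932 and 4480 CPM in msn2Δ/msn4Δ cells, 1656, 2555 and 2928 CPM in -hsf1 cells, and 7203, 12744 and 17282 CPM in wildtype cells. Every wildtype library lay above every msn2Δ/msn4Δ and -hsf1 library, which overlapped each other, and the -hsf1/msn2Δ/msn4Δ libraries lay far below all of these. Group means differed 6934-fold between the highest, wildtype after 30 min at 42 °C, and the lowest, msn2Δ/msn4Δ at 25 °C, and HSP30 alone made up to 1.27% of the counts of a library.

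In wildtype cells the 37 °C response was early and partly reversed, whereas the 42 °C response stayed. HSP30 had 190, 277 and 154 CPM after 10 min at 37 °C and 9.89, 33.1 and 38.9 CPM after 30 min. It had 5652, 8220 and 5640 CPM after 10 min at 42 °C. Against 25 °C the log2 fold changes were 6.35 ± 0.77 and 3.43 ± 0.70 (SE) after 10 and 30 min at 37 °C, and 11.33 ± 0.91 and 12.26 ± 0.94 after 10 and 30 min at 42 °C. All 4 were called, which means an adjusted p under 0.05 in edgeR's quasi-likelihood F test with Benjamini-Hochberg adjustment over all tested genes and a change of at least 1 on the log2 scale in either direction. In these 4 comparisons 21%, 14.4%, 23.1% and 30.2% of all tested genes were called higher. Among all 6070, HSP30 ranked 1st by log2 fold change after 10 min at 42 °C and 2nd after 30 min.

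**Figure D1:**
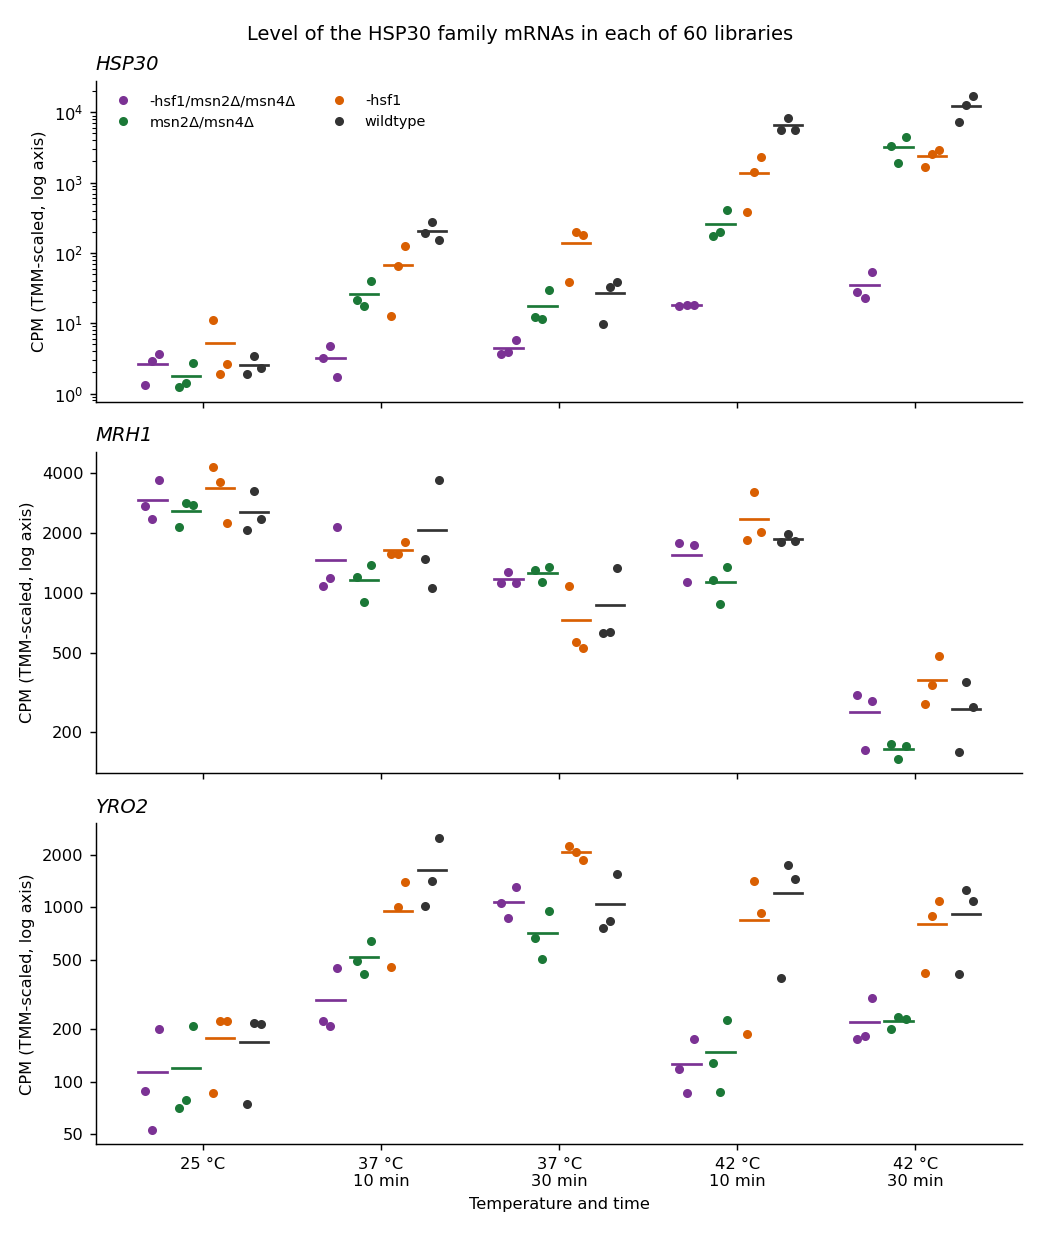
Level of HSP30, MRH1 and YRO2 in each of 60 libraries, in TMM-scaled CPM on log axes, by temperature and time; each point is a library, each dash the mean of 3 libraries, and colours mark the strain states. HSP30 spans from 1.23 to 17282 CPM, with the -hsf1/msn2Δ/msn4Δ libraries lowest at every heat condition, while MRH1 falls in all states after 30 min at 42 °C and YRO2 stays low at 42 °C in both deleted states.

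In -hsf1 cells HSP30 rose at every heat condition, but reached less than in wildtype at 42 °C. It had 12.8, 66 and 124 CPM after 10 min at 37 °C and 39, 201 and 180 CPM after 30 min. It had 388, 1424 and 2299 CPM after 10 min at 42 °C, where the first library stood well below the others. The log2 fold changes against 25 °C were 3.86 ± 0.70, 4.92 ± 0.72, 8.20 ± 0.82 and 9.0 ± 0.84 in the order of 37 °C at 10 and 30 min and 42 °C at 10 and 30 min, all called, where 16.1%, 22.9%, 22.6% and 29.8% of genes were called higher. Without the first -hsf1 library at 25 °C they were 4.87, 5.97, 9.20 and 10.11, each about 1 log2 unit higher and still called. Without heated replicate 3 the values after 10 min were 3.19 at 37 °C and 7.59 at 42 °C. With -hsf1 set against wildtype the log2 differences were -1.62 ± 0.60 after 10 min at 37 °C, not called (adjusted p = 0.102, edgeR), and 2.36 ± 0.62 after 30 min, called higher. They were -2.25 ± 0.61 and -2.38 ± 0.61 after 10 and 30 min at 42 °C, both called lower. That after 10 min at 42 °C was -2.88 without -hsf1 replicate 3. At 37 °C 2.69% and 11.4% of genes were called higher and 1.47% and 17.3% lower at 10 and 30 min, and at 42 °C 1.5% and 3% of genes were called lower at 10 and 30 min. Both lower calls at 42 °C rested on single libraries. The call at 10 min was lost without -hsf1 replicate 1 (-1.84), -hsf1 replicate 2 (-2.32) or wildtype replicate 2 (-2.07), and that at 30 min without -hsf1 replicate 1 (-2.18).

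In msn2Δ/msn4Δ cells HSP30 also rose at every heat condition, and at 42 °C its level went on rising between 10 and 30 min. It had 21.5, 17.6 and 40.2 CPM after 10 min at 37 °C and 12.3, 11.3 and 29.8 CPM after 30 min. It had 173, 199 and 402 CPM after 10 min at 42 °C, all far below every wildtype library at that time. Between 10 and 30 min at 42 °C it rose by 3.64 ± 0.64 (log2, SE), where 9.65% of genes were called higher. The change over that interval was 0.93 ± 0.58 in wildtype, 0.80 ± 0.58 in -hsf1 and 0.95 ± 0.60 in -hsf1/msn2Δ/msn4Δ cells. None of these was called, and whether the change differed between states was not tested. Against 25 °C the log2 fold changes were 3.84 ± 0.73, 3.27 ± 0.72, 7.13 ± 0.80 and 10.78 ± 0.90 in the same order as above, all called, where 8.02%, 7.87%, 19.5% and 26.2% of genes were called higher. The first of these was 4.44 without 25 °C replicate 3, and the rise between 10 and 30 min at 42 °C was 4.24 without replicate 3 at 10 min. With msn2Δ/msn4Δ set against wildtype the differences were -2.97 ± 0.63 and -0.62 ± 0.60 at 37 °C, and -4.65 ± 0.67 and -1.94 ± 0.60 at 42 °C. All but that after 30 min at 37 °C (adjusted p = 0.551, edgeR) were called lower, where 13.9%, 2.9%, 8.81% and 13.7% of genes were called lower.

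In -hsf1/msn2Δ/msn4Δ cells HSP30 rose at 42 °C, and no change was called at 37 °C. It had 3.22, 4.81 and 1.7 CPM after 10 min at 37 °C, within the range at 25 °C but for the second library, and 3.68, 3.93 and 5.8 CPM after 30 min. After 10 min at 42 °C it had 17.9, 18.2 and 18.4 CPM, all above the 25 °C libraries. The log2 fold changes were 0.23 ± 0.73 and 0.70 ± 0.71 at 37 °C, not called (adjusted p = 0.88 and 0.419, edgeR), with 95% intervals of -1.20 to 1.67 and -0.68 to 2.09. At 42 °C they were 2.74 ± 0.69 and 3.69 ± 0.70, both called, where 17.1% and 25.5% of genes were called higher; at 37 °C the shares were 4.68% and 16.9%.

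**Figure D2:**
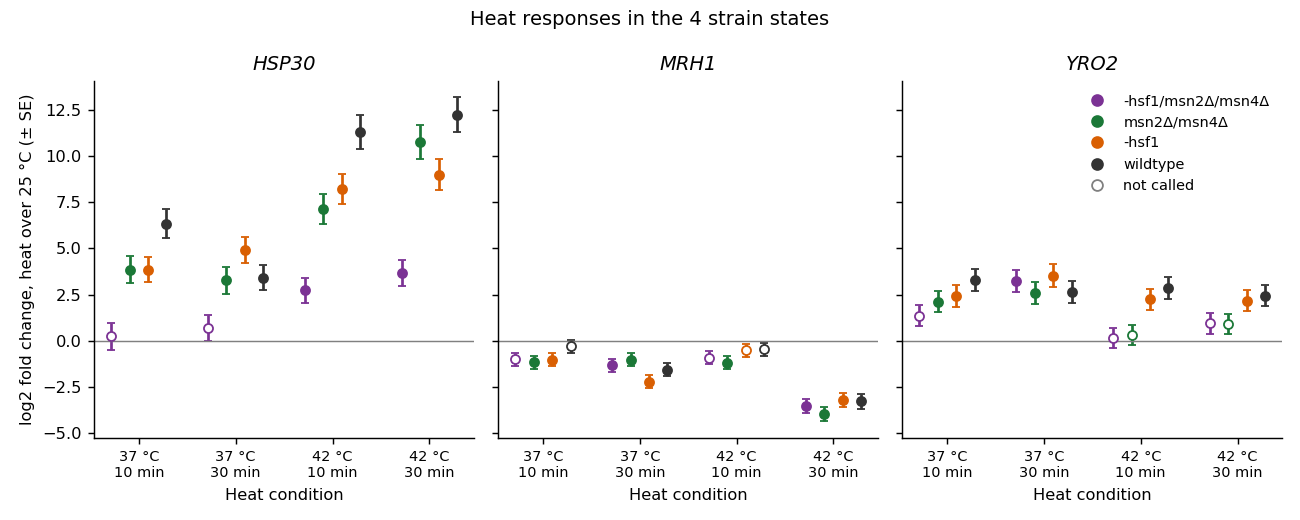
Log2 fold change against 25 °C in the same strain state for each of the 3 genes, with bars of 1 SE; filled points were called and open points were not. HSP30 was called higher in 14 of 16 comparisons, YRO2 higher in 11 of 16, and MRH1 lower in 11 of 16.

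HSP30 was lower in -hsf1/msn2Δ/msn4Δ cells than in either single-loss state at every heat condition. With -hsf1/msn2Δ/msn4Δ set against msn2Δ/msn4Δ, HSP30 differed by -3.04 ± 0.68 and -2.00 ± 0.65 at 37 °C and by -3.83 ± 0.65 and -6.52 ± 0.74 at 42 °C, all called lower, where 1.81%, 14.2%, 2.08% and 3.97% of genes were called lower. With -hsf1/msn2Δ/msn4Δ set against -hsf1, it differed by -4.39 ± 0.70, -4.98 ± 0.71, -6.24 ± 0.73 and -6.08 ± 0.72, all called lower, where 10%, 16.2%, 12.4% and 14.1% of genes were called lower. The first of these was -3.67 without -hsf1 replicate 3. The call against msn2Δ/msn4Δ after 30 min at 37 °C was lost without msn2Δ/msn4Δ replicate 3 (-1.37) or -hsf1/msn2Δ/msn4Δ replicate 1 (-1.84) or 2 (-1.85). Non-additivity, the double difference from wildtype minus the sum of both single differences, was tested directly. It was -4.37 ± 0.89 (adjusted p = 4.38e-04, edgeR) after 30 min at 37 °C and -4.14 ± 0.85 (adjusted p = 0.00746) after 30 min at 42 °C, both called lower. After 10 min it was -1.43 ± 0.88 at 37 °C (adjusted p = 0.669) and -1.58 ± 0.83 at 42 °C (adjusted p = 0.935), neither called. In counts simulated for non-additivity after 30 min at 42 °C, 49 of 100 genes with a change of 1.5 were recovered and 88 of 100 with a change of 3. Those genes were drawn at random, each with its own level and spread. The shares therefore do not say how often such a change in HSP30, or one after 10 min, would be called. Of all tested genes 0.165% and 7.25% were called lower at 37 °C after 10 and 30 min, and 0.148% and 0.247% at 42 °C. The call at 42 °C and 30 min was lost without wildtype replicate 1 (-3.87, adjusted p = 0.0545). For MRH1 and YRO2 none of the 4 non-additivity comparisons was called.

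**Figure D3:**
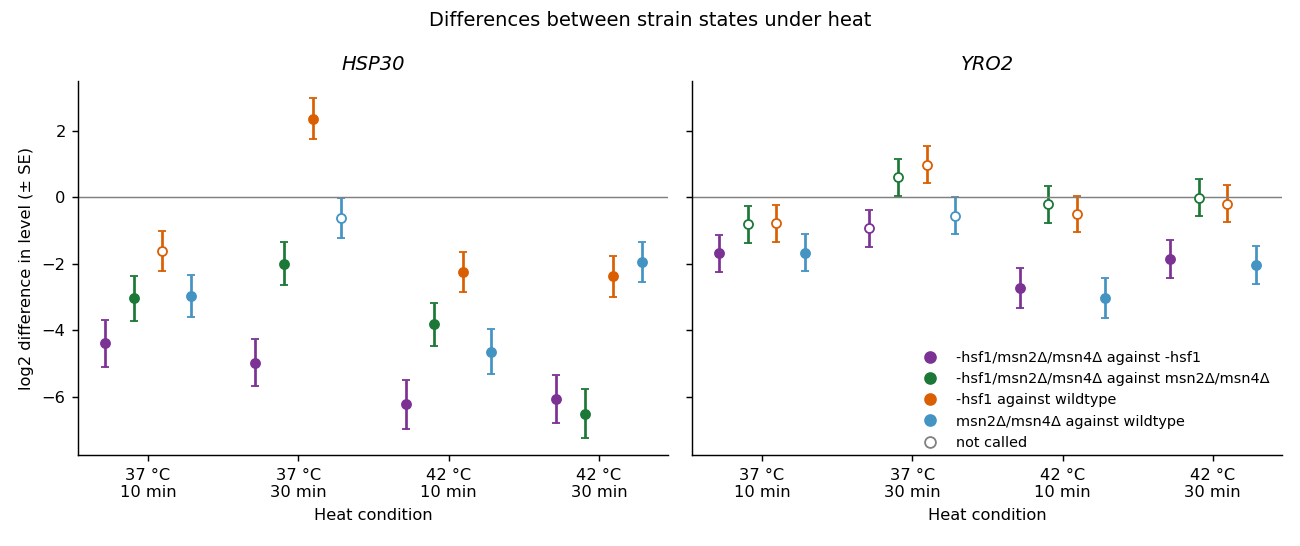
Log2 difference between strain states at each heat condition for HSP30 and YRO2, with bars of 1 SE; filled points were called and open points were not. HSP30 lies, after 30 min at 42 °C, at -6.52 in -hsf1/msn2Δ/msn4Δ against msn2Δ/msn4Δ and at -6.08 against -hsf1 cells, while YRO2 is called lower only in the comparisons across the MSN2 and MSN4 deletions.

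The step in temperature was called for HSP30 in every state. These steps, and the changes over time below, were tested within each state and not between states. Setting 42 °C against 37 °C, the log2 difference after 30 min was 2.99 ± 0.66 in -hsf1/msn2Δ/msn4Δ, 7.51 ± 0.77 in msn2Δ/msn4Δ, 4.08 ± 0.66 in -hsf1 and 8.83 ± 0.82 in wildtype cells, all called. It was the highest of 6070 genes in wildtype. The shares of genes called higher were 20.9%, 21.4%, 18.7% and 21.5%. After 10 min the difference was 2.50 ± 0.67, 3.29 ± 0.64, 4.35 ± 0.67 and 4.97 ± 0.68 in the same order of states, all called, where 13.1%, 18.1%, 12.2% and 15.4% of genes were called higher. Replicate 3 at 42 °C bore on it, with 2.65 without it in msn2Δ/msn4Δ and 3.74 in -hsf1 cells, where leaving out replicate 3 at 37 °C gave 5.00. The msn2Δ/msn4Δ value after 30 min was 8.09 without replicate 3 at 37 °C. At 37 °C the level after 30 min was lower than after 10 min in wildtype by a called change of -2.92 ± 0.63, where 8.47% of genes were called lower. That change was 0.47 ± 0.69 in -hsf1/msn2Δ/msn4Δ, -0.58 ± 0.60 in msn2Δ/msn4Δ and 1.06 ± 0.59 in -hsf1 cells, none of them called. Without -hsf1 replicate 3 at 10 min, the -hsf1 change was 1.86 and was called.

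YRO2, the duplicate linked to acetic acid tolerance, rose with heat, and at 42 °C its rise was called only in the states that kept MSN2 and MSN4. At 25 °C it had 88.5, 53.2 and 202 CPM in -hsf1/msn2Δ/msn4Δ, 71.1, 78.8 and 208 CPM in msn2Δ/msn4Δ, 86.8, 225 and 222 CPM in -hsf1, and 74.8, 216 and 214 CPM in wildtype cells. The states overlapped, and the libraries within each spread widely. After 10 min at 42 °C it had 118, 86.1 and 177 CPM in -hsf1/msn2Δ/msn4Δ and 128, 87.8 and 227 CPM in msn2Δ/msn4Δ cells. It had 188, 1417 and 931 CPM in -hsf1 and 394, 1759 and 1456 CPM in wildtype cells. At that point both deleted states stayed in their 25 °C range but for 1 msn2Δ/msn4Δ library, and the first -hsf1 library stood with them, within the -hsf1 range at 25 °C.

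In wildtype cells the log2 fold changes of YRO2 were 3.29 ± 0.60, 2.64 ± 0.59, 2.84 ± 0.59 and 2.45 ± 0.58 after 10 and 30 min at 37 °C and 10 and 30 min at 42 °C, all called. In -hsf1 cells they were 2.42 ± 0.58, 3.54 ± 0.61, 2.25 ± 0.58 and 2.17 ± 0.58, all called. The background shares are those given for HSP30. In msn2Δ/msn4Δ cells YRO2 rose at 37 °C, by 2.12 ± 0.58 and 2.58 ± 0.59, whereas at 42 °C the values of 0.31 ± 0.55 and 0.90 ± 0.56 were not called (adjusted p = 0.684 and 0.16, edgeR). In -hsf1/msn2Δ/msn4Δ cells only the rise of 3.24 ± 0.60 after 30 min at 37 °C was called; the other values were 1.36 ± 0.56 after 10 min at 37 °C (adjusted p = 0.0813, edgeR), 0.15 ± 0.55 after 10 min and 0.94 ± 0.56 after 30 min at 42 °C. The third 25 °C library of each deleted state, the highest of its group, bore on these. Without it the change after 30 min at 42 °C was called in msn2Δ/msn4Δ (1.67) and -hsf1/msn2Δ/msn4Δ cells (1.70), and that after 10 min at 37 °C in -hsf1/msn2Δ/msn4Δ cells (2.06). The called rises at 37 °C were larger without it, at 4.02 after 30 min in -hsf1/msn2Δ/msn4Δ and 2.93 and 3.25 after 10 and 30 min in msn2Δ/msn4Δ cells. In -hsf1 cells the rise after 10 min at 42 °C was 1.61 without heated replicate 2. After 30 min at 37 °C YRO2 had 1056, 867 and 1313 CPM in -hsf1/msn2Δ/msn4Δ, 672, 508 and 960 CPM in msn2Δ/msn4Δ, 2251, 2068 and 1879 CPM in -hsf1, and 767, 837 and 1546 CPM in wildtype cells. Only the -hsf1 libraries stood above all others there.

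Between states YRO2 was lower across the MSN2 and MSN4 deletions in 3 of 4 conditions of each comparison. After 10 min at 37 °C the libraries had 495, 416 and 643 CPM in msn2Δ/msn4Δ cells, against 1020, 1425 and 2502 CPM in wildtype cells, and the groups did not overlap. With msn2Δ/msn4Δ set against wildtype the log2 differences were -1.67 ± 0.57 and -0.56 ± 0.55 at 37 °C and -3.03 ± 0.60 and -2.05 ± 0.57 at 42 °C, all called lower except -0.56, with the shares of genes called lower as given for HSP30. With -hsf1/msn2Δ/msn4Δ set against -hsf1 they were -1.69 ± 0.57, -0.94 ± 0.56, -2.73 ± 0.59 and -1.87 ± 0.57, all called lower except -0.94. The calls after 10 min at 37 °C rested on single libraries. That against wildtype was lost without msn2Δ/msn4Δ replicate 1 (-1.62) or 2 (-1.52) or wildtype replicate 3 (-1.22), also left out with the 5 farthest libraries, and that against -hsf1 without -hsf1 replicate 3 (-1.36) or -hsf1/msn2Δ/msn4Δ replicate 1 (-1.58) or 2 (-1.54). No comparison across Hsf1 depletion was called for YRO2. With -hsf1 set against wildtype the differences were -0.79 ± 0.55, 0.98 ± 0.56, -0.51 ± 0.55 and -0.19 ± 0.55, and the last had a 95% interval of -1.27 to 0.89. With -hsf1/msn2Δ/msn4Δ set against msn2Δ/msn4Δ they were -0.82 ± 0.56, 0.60 ± 0.55, -0.22 ± 0.55 and -0.02 ± 0.55, and the last had an interval of -1.10 to 1.07, so both intervals include a log2 difference of -1.

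MRH1, the other duplicate, was the abundant member at 25 °C and the one that fell. It had 2741, 2353 and 3681 CPM in -hsf1/msn2Δ/msn4Δ, 2146, 2836 and 2774 CPM in msn2Δ/msn4Δ, 4299, 3595 and 2250 CPM in -hsf1, and 2064, 3249 and 2353 CPM in wildtype cells at 25 °C. After 30 min at 42 °C it had 307, 162 and 285 CPM in -hsf1/msn2Δ/msn4Δ, 174, 147 and 171 CPM in msn2Δ/msn4Δ, 276, 344 and 480 CPM in -hsf1, and 158, 356 and 267 CPM in wildtype cells. Every heated library of these lay below every 25 °C library, in all 4 states. The log2 fold changes were -3.54 ± 0.39, -3.98 ± 0.40, -3.21 ± 0.38 and -3.29 ± 0.38 in that order of states, all called, where 24.6%, 23.2%, 27.2% and 29.5% of genes were called lower. Most of that fall came after the first 10 min. Between 10 and 30 min at 42 °C MRH1 changed by -2.62 ± 0.37 in -hsf1/msn2Δ/msn4Δ, -2.79 ± 0.37 in msn2Δ/msn4Δ, -2.69 ± 0.37 in -hsf1 and -2.84 ± 0.38 in wildtype cells, all called, where 13.4%, 13.4%, 16.8% and 16.3% of genes were called lower.

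At the other 3 conditions the changes of MRH1 were smaller. After 30 min at 37 °C it was called lower in all 4 states, by -1.32 ± 0.36 in -hsf1/msn2Δ/msn4Δ, -1.03 ± 0.35 in msn2Δ/msn4Δ, -2.22 ± 0.37 in -hsf1 and -1.56 ± 0.36 in wildtype cells, where 20.9%, 7.87%, 25% and 13.1% of genes were called lower. After 10 min at 37 °C it was called lower in msn2Δ/msn4Δ (-1.16 ± 0.35) and -hsf1 cells (-1.04 ± 0.35), where 13.2% and 15.2% of genes were, and not in -hsf1/msn2Δ/msn4Δ (-0.99 ± 0.35) or wildtype cells (-0.30 ± 0.35), where 8.55% and 22.2% were. After 10 min at 42 °C it was called lower only in msn2Δ/msn4Δ cells, by -1.19 ± 0.35, where 13.7% of genes were; the values were -0.92 ± 0.35 in -hsf1/msn2Δ/msn4Δ, -0.52 ± 0.35 in -hsf1 and -0.46 ± 0.35 in wildtype cells, where 13.6%, 17.2% and 18.2% were. The calls near 1 rested on single libraries. After 10 min at 37 °C the call was lost in msn2Δ/msn4Δ cells without 25 °C replicate 2 (-0.95) or 3 (-0.96) or 37 °C replicate 2 (-0.86), and in -hsf1 cells without 25 °C replicate 1 (-0.86) or 2 (-0.998) or 37 °C replicate 2 (-0.93). After 30 min at 37 °C the msn2Δ/msn4Δ call was lost without 25 °C replicate 2 (-0.96) or 3 (-0.97) or any of the heated replicates 1 (-1.03), 2 (-0.95) and 3 (-1.07).

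No difference between strain states was called for MRH1 under heat, in 16 comparisons that ranged from -0.85 to 0.68 on the log2 scale. The background shares called in either direction were 4.15%, 28.7%, 1.71% and 4.38% for -hsf1 against wildtype, 24%, 3.92%, 15.8% and 31.8% for msn2Δ/msn4Δ against wildtype, 6.8%, 24.4%, 2.44% and 6.28% for -hsf1/msn2Δ/msn4Δ against msn2Δ/msn4Δ, and 14.4%, 38.4%, 22.2% and 33.3% for -hsf1/msn2Δ/msn4Δ against -hsf1, after 10 and 30 min at 37 °C and 10 and 30 min at 42 °C. One wildtype library stood apart, with 3700 CPM after 10 min at 37 °C beside 1476 and 1064 CPM. Without wildtype replicate 1 or 2 at that condition, msn2Δ/msn4Δ against wildtype was called lower (-1.04 and -1.15). The comparison of -hsf1/msn2Δ/msn4Δ with -hsf1 after 30 min at 37 °C was called higher without -hsf1 replicate 1 (1.10) and with scaling by library totals (1.36). Library totals also gave higher calls after 30 min at 42 °C for -hsf1 against wildtype (1.002) and -hsf1/msn2Δ/msn4Δ against msn2Δ/msn4Δ (1.29). At 25 °C none of the 3 members was called in the 4 comparisons tested. The log2 differences were -0.46 to 0.87 for HSP30, 0.02 to 0.40 for MRH1 and -0.56 to 0.08 for YRO2. The -hsf1 state was not compared with either deleted state at 25 °C. Of all tested genes 0.494% (-hsf1/msn2Δ/msn4Δ against wildtype), 0.329% (-hsf1/msn2Δ/msn4Δ against msn2Δ/msn4Δ), 0.198% (-hsf1 against wildtype) and 0.115% (msn2Δ/msn4Δ against wildtype) were called there.

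The make-up of the family's mRNA changed with heat. Within each library the counts of the 3 genes were divided by coding length and given as shares of their sum. At 25 °C MRH1 held 96.6% in -hsf1/msn2Δ/msn4Δ, 95.9% in msn2Δ/msn4Δ, 94.6% in -hsf1 and 94.3% in wildtype cells (means, n = 3). It held 51.2%, 5.06%, 10.9% and 2.06% in the same order of states after 30 min at 42 °C. HSP30 then held 6.73%, 88.4%, 67.8% and 91.5%, against 0.0846%, 0.0629%, 0.132% and 0.0895% at 25 °C. By mean share YRO2 was the leading member after 30 min at 37 °C in -hsf1 (69.3%) and wildtype cells (52.6%). MRH1 led there in -hsf1/msn2Δ/msn4Δ (54%) and msn2Δ/msn4Δ cells (65.6%). In -hsf1/msn2Δ/msn4Δ cells the shares overlapped, at 47.8% to 61.1% for MRH1 and 38.7% to 52% for YRO2.

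**Figure D4:**
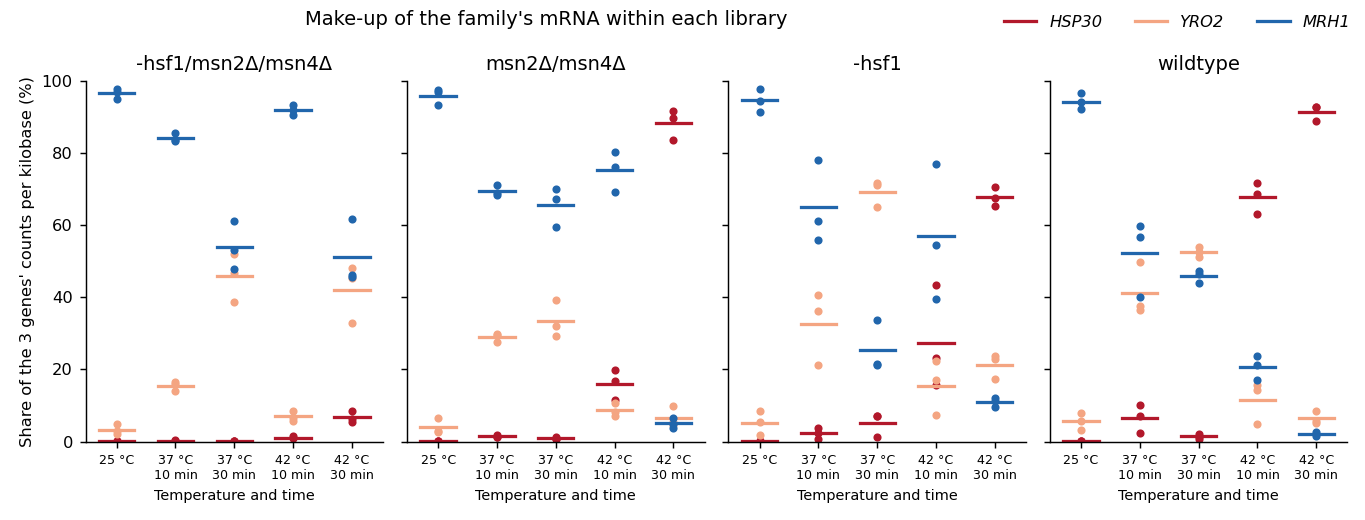
Share of the 3 genes' counts per kilobase held by HSP30, YRO2 and MRH1 in each library, in percent, with 1 panel per strain state; points are libraries and dashes are means of 3. MRH1 holds over 90% at 25 °C in each state, and HSP30 holds 91.5% in wildtype but 6.73% in -hsf1/msn2Δ/msn4Δ cells after 30 min at 42 °C.

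As a ratio per length within a library, which no scaling between libraries touches, HSP30 over MRH1 stood at a mean log2 of 5.51 ± 0.43 in wildtype cells after 30 min at 42 °C, against -10.04 ± 0.096 at 25 °C (SD, n = 3 each). The ratio had changed by 7.32 in -hsf1/msn2Δ/msn4Δ, 14.8 in msn2Δ/msn4Δ, 12.44 in -hsf1 and 15.55 in wildtype cells. The ratio of YRO2 to MRH1 had changed by 4.69, 5.05, 5.39 and 5.80 in the same order. Each of these 8 changes separated all heated from all 25 °C libraries, with p = 0.1 in a two-sided exact permutation test, the smallest that 3 libraries against 3 allow.

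When the 20 groups were ordered by a member's mean level, most neighbouring groups overlapped. Of the 19 neighbouring pairs, the libraries did not overlap in 2 for HSP30, 2 for MRH1 and 0 for YRO2. The same count was not made for other genes, so whether it is particular to the family was not tested. MRH1 ran from 163.9 CPM in msn2Δ/msn4Δ cells after 30 min at 42 °C to 3381 CPM in -hsf1 cells at 25 °C, a 20.6-fold range. YRO2 ran from 114.5 CPM in -hsf1/msn2Δ/msn4Δ cells at 25 °C to 2066 CPM in -hsf1 cells after 30 min at 37 °C, an 18.1-fold range.

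The members did not follow each other. Over the 20 group means of log2 CPM, which share the same strains and libraries, Pearson's r was -0.562 between HSP30 and MRH1, 0.447 between HSP30 and YRO2 and -0.219 between MRH1 and YRO2. Among 4782 candidate genes, those most like HSP30 were LSB1 (0.95), YBR085C-A (0.929), RCR2 (0.928), PIB1 (0.927) and HRK1 (0.918). Those most like YRO2 were GSP2 (0.948), which encodes a Ran GTPase, LAM5 (0.942), STF1 (0.941), SDH8 (0.939) and VID30 (0.935). Those most like MRH1 were ARO8 (0.953), an aromatic aminotransferase, DPH5 (0.95), TIF34 (0.949), a subunit of the translation initiation factor eIF3, DPS1 (0.942), the cytosolic aspartyl-tRNA synthetase, and VMA7 (0.94), a subunit of the vacuolar proton pump. These are descriptions over 20 groups, and r takes no account of the size of change. The 5 genes most like HSP30 ranged over 1.95, 4.84, 2.45, 2.71 and 3.75 log2 units, in the order named. Group means of HSP30 itself differed 6934-fold.

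HRK1, one of the 5 genes most like HSP30, encodes a kinase that activates Pma1, the pump that Hsp30 restrains. A list of 7 genes of the pump and its regulators was read beside the family. After 30 min at 42 °C, 0, 1, 2 and 2 of the 7 were called higher and 2, 3, 3 and 3 lower in -hsf1/msn2Δ/msn4Δ, msn2Δ/msn4Δ, -hsf1 and wildtype cells. Of all tested genes 25.5%, 26.2%, 29.8% and 30.2% were called higher there and 24.6%, 23.2%, 27.2% and 29.5% lower. The median log2 fold change of the list was -0.39, -0.02, -0.11 and -0.85, beside all-gene medians of 0.01, 0.05, 0.01 and -0.04. PMA1 itself fell in all 4 states, by -1.98 ± 0.36, -2.26 ± 0.37, -3.13 ± 0.38 and -3.76 ± 0.39. Of the small proteolipids bound to the pump, PMP2 fell in all 4 states (-1.97 ± 0.30, -3.74 ± 0.35, -2.96 ± 0.34 and -4.03 ± 0.39), and PMP1 fell in all but -hsf1/msn2Δ/msn4Δ cells (-0.87 ± 0.42), by -2.19 ± 0.44 in wildtype. HRK1 rose by 2.93 ± 0.31 in msn2Δ/msn4Δ, 1.72 ± 0.30 in -hsf1 and 3.54 ± 0.32 in wildtype cells, and had 0.34 ± 0.29 in -hsf1/msn2Δ/msn4Δ cells, not called. PTK2, a second activating kinase, rose in -hsf1 (1.98 ± 0.35) and wildtype cells (2.95 ± 0.36), and had -0.39 ± 0.34 in -hsf1/msn2Δ/msn4Δ and -0.01 ± 0.34 in msn2Δ/msn4Δ cells.

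Of 12 genes of weak acid stress, 5, 5, 6 and 8 were called higher and 1, 0, 1 and 1 lower after 30 min at 42 °C in -hsf1/msn2Δ/msn4Δ, msn2Δ/msn4Δ, -hsf1 and wildtype cells. The all-gene shares at that condition were 25.5%, 26.2%, 29.8% and 30.2% higher and 24.6%, 23.2%, 27.2% and 29.5% lower. The list's medians were 0.55, 0.86, 1.34 and 2.08. SPI1, a cell wall protein, rose by 1.40 ± 0.42, 6.11 ± 0.51, 4.93 ± 0.48 and 7.66 ± 0.55 in that order. GRE1, a hydrophilin, rose by 6.42 ± 0.53, 4.71 ± 0.51, 6.76 ± 0.55 and 6.43 ± 0.55. ATO2, an acetate and ammonium transporter, rose by 1.04 ± 0.42, 1.16 ± 0.44, 5.39 ± 0.44 and 5.56 ± 0.44. TPO2, a polyamine exporter and Haa1 target, rose by 3.93 ± 0.54, 4.42 ± 0.56, 1.78 ± 0.50 and 3.04 ± 0.52. HAA1 itself, the activator known for YRO2 under acetic acid, rose by 1.43 ± 0.26 in wildtype and fell by -1.26 ± 0.26 in -hsf1/msn2Δ/msn4Δ cells, and was not called in msn2Δ/msn4Δ (-0.64 ± 0.26) or -hsf1 cells (0.89 ± 0.26).

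Of 14 genes of the eisosome, the furrow of the plasma membrane, 4, 4, 6 and 7 were called higher and 5, 5, 1 and 1 lower in the same order at that condition. The all-gene shares are those given for the weak acid list, and 4 of 14 higher in both deleted states is near the background of 25.5% and 26.2%. The list's medians were -0.53, -0.65, 0.78 and 1.20. FMP45, a Sur7-like membrane protein, rose by 4.65 ± 0.79, 4.46 ± 0.79, 8.43 ± 0.93 and 9.64 ± 0.98. PUN1, another tetraspan membrane protein, rose by 5.53 ± 0.35, 4.97 ± 0.34, 4.84 ± 0.34 and 4.16 ± 0.33. NCE102 rose by 1.60 ± 0.33 in wildtype and fell by -2.77 ± 0.34 in -hsf1/msn2Δ/msn4Δ and -2.67 ± 0.34 in msn2Δ/msn4Δ cells, with 0.94 ± 0.32 in -hsf1 cells, not called. SUR7 fell in all 4 states, by -3.88 ± 0.40, -3.91 ± 0.40, -2.40 ± 0.37 and -1.57 ± 0.36.

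Known targets of the activators give a scale for the family. At 42 °C and 30 min, 6 Hsf1 targets had median log2 fold changes of 1.61, 7.51, 2.46 and 7.39, and 6 Msn2 and Msn4 targets had 0.87, 1.13, 6.26 and 7.61, in -hsf1/msn2Δ/msn4Δ, msn2Δ/msn4Δ, -hsf1 and wildtype cells. HSP30, with 3.69, 10.78, 9.0 and 12.26, kept a large response in both single-loss states. HSP42, a small heat shock protein in the first list, had 0.92 ± 0.42, not called, and called rises of 10.22 ± 0.61, 5.98 ± 0.51 and 9.88 ± 0.60. YRO2, with 0.94, 0.90, 2.17 and 2.45, had called rises in the 2 states that kept MSN2 and MSN4. No difference of its response from that of wildtype was called at this condition. SSA4, an inducible Hsp70, had 1.67 ± 0.31, 9.82 ± 0.44, 2.38 ± 0.32 and 9.24 ± 0.43, and CTT1, cytosolic catalase, had 2.25 ± 0.43, 1.77 ± 0.43, 8.03 ± 0.55 and 8.47 ± 0.56, all called.

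**Figure D5:**
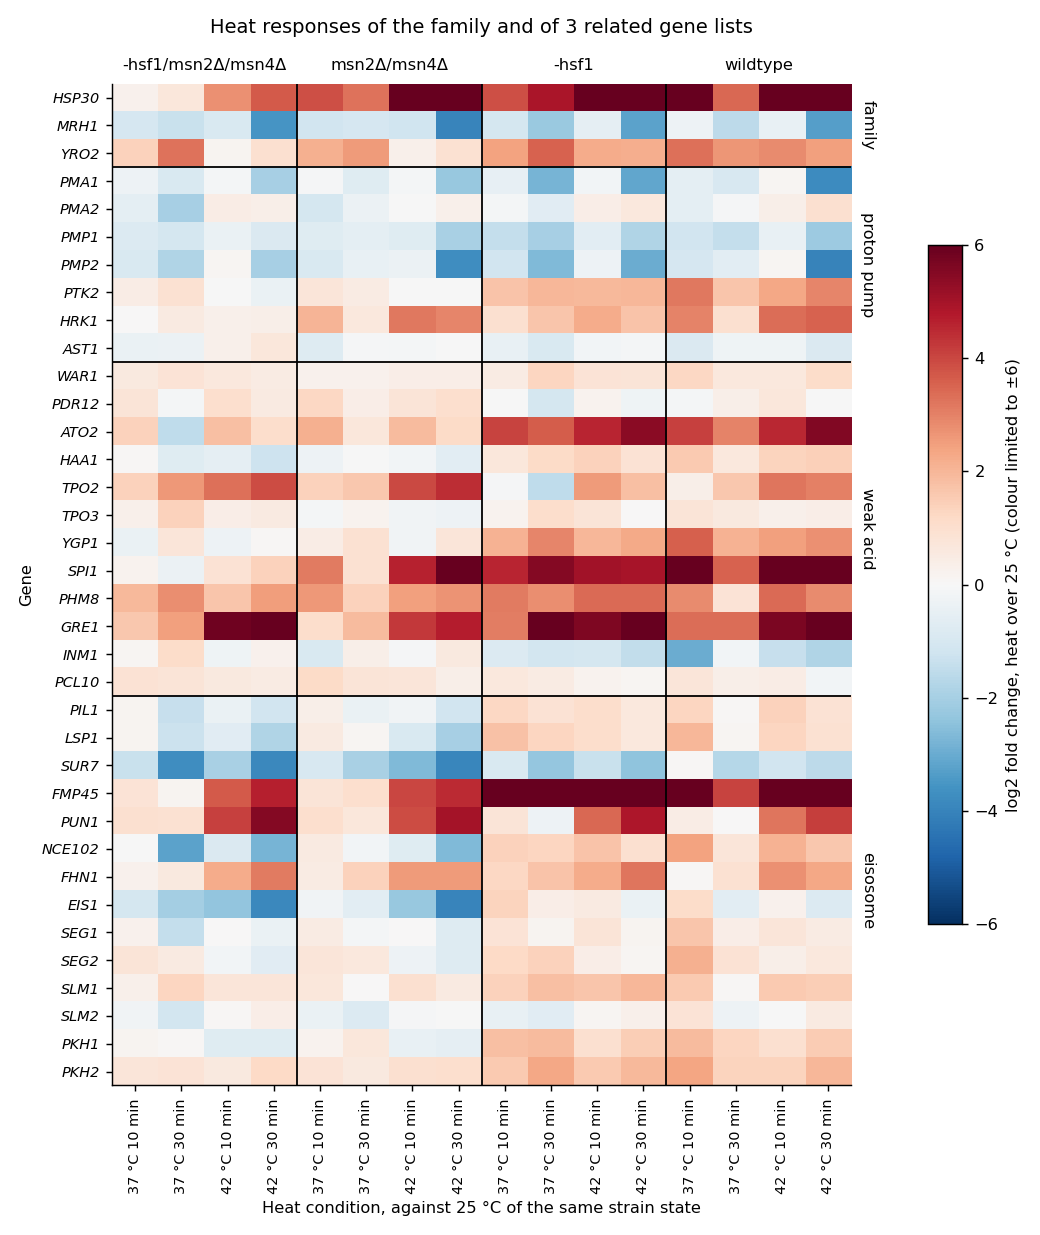
Heat map of the log2 fold change against 25 °C of the same strain state, for the family and the proton pump, weak acid and eisosome lists (rows) at 4 heat conditions in 4 strain states (columns), with colours limited to ±6. After 30 min at 42 °C HSP30 reaches 12.26 in wildtype and 3.69 in -hsf1/msn2Δ/msn4Δ cells, while PMA1 falls in all 4 states.

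Of the genes next to each member, only YBR053C followed its member's heat calls. The shares of all genes called in the heat comparisons are those given for HSP30 and MRH1. YBR053C was called higher in every heat comparison in which its neighbour YRO2 was. It was also called after 30 min at 42 °C in both deleted states, where YRO2 was not. YCR022C, 313 bases upstream of HSP30 on the same strand, was called higher at 42 °C in wildtype (2.00 ± 0.51 and 2.93 ± 0.50 after 10 and 30 min) and -hsf1 cells (1.60 ± 0.50 and 2.94 ± 0.50), and after 10 min in -hsf1/msn2Δ/msn4Δ cells (1.46 ± 0.48). At 37 °C YCR022C was called lower after 30 min in -hsf1/msn2Δ/msn4Δ (-2.65 ± 0.62) and -hsf1 cells (-1.94 ± 0.63) and after 10 min in msn2Δ/msn4Δ cells (-1.47 ± 0.54). HTL1, 552 bases beyond the 3′ end of HSP30, was called lower than at 25 °C after 30 min at 42 °C in -hsf1 (-2.51 ± 1.10) and wildtype cells (-3.65 ± 1.24). Between states HTL1 was called higher in msn2Δ/msn4Δ than in wildtype cells after 10 (2.62 ± 0.94) and 30 min at 42 °C (3.425 ± 1.277). HTL1 was also called higher in -hsf1/msn2Δ/msn4Δ than in -hsf1 cells after 30 min at 37 °C (3.33 ± 1.01) and 42 °C (3.64 ± 1.05). Of 6070 genes, 424 and 1102 were called higher in the comparisons with wildtype, and 1345 and 1165 in those with -hsf1. YBR053C, 2349 bases upstream of YRO2 on the opposite strand, was called higher in all 8 heat comparisons of the -hsf1 and wildtype states, by 1.43 to 2.88. YBR053C was also called higher, by 1.19 to 1.81, after 30 min at 37 °C and 42 °C in both deleted states and after 10 min at 37 °C in msn2Δ/msn4Δ cells. PRP6, 466 bases beyond the 3′ end of YRO2, was called lower in 3 wildtype comparisons (-1.32 ± 0.24, -1.31 ± 0.24 and -1.18 ± 0.24). Beside MRH1, LYS14, 627 bases beyond its 3′ end, had no call in 16 heat comparisons, and PST2, 3451 bases upstream, was called higher at 37 °C in -hsf1 and wildtype cells and lower after 30 min at 42 °C in -hsf1/msn2Δ/msn4Δ (-2.40 ± 0.27) and msn2Δ/msn4Δ cells (-2.46 ± 0.27).

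The authors' deposited table gives log2 fold changes for the same 16 heat comparisons. It differed from the values here by at most 0.185 for HSP30, 0.0822 for MRH1 and 0.0821 for YRO2. The authors' deposited table lay on the same side of the threshold in 16 of 16 comparisons for HSP30, 16 for MRH1 and 15 for YRO2.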

How the data were processed

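Raw counts of reads over 7126 features were deposited for each of 60 libraries, made with the Lexogen SENSE mRNA-Seq kit and 50-base single reads, per the labels' protocols. The submitters' processing notes name bcl2fastq 1.8.4, featureCounts 2.0.0, DESeq2 1.28.1 and build R64; whether counting used the strand is not given in the sources used here. Log2 fold changes with p-values for the heat comparisons, also deposited, were only set beside the values computed here.

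From the counts, filterByExpr kept 6070 features and removed 1056. All 60 libraries entered 1 fit with a mean per group (edgeR 4.0.16 in R 4.3.3, TMM scaling, quasi-likelihood F test, two-sided, Benjamini-Hochberg over all tested genes). A gene was called at a change of 1 or more on the log2 scale with an adjusted p under 0.05. The common biological coefficient of variation was 0.276. In counts simulated for this design, 73 of 100 genes with a change of 1.5 (log2) and 93 of 100 with a change of 3 were recovered for wildtype after 30 min at 42 °C against 25 °C, over 6070 genes, and 49 and 88 of 100 for non-additivity after 30 min at 42 °C. No 2 replicates were duplicates (chi-square per degree of freedom 9.25 to 235.2). Positions and sequences come from R64, in which both ends of 5710 of 5721 single-exon features equalled the counted ones.

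The members, lists and comparisons were chosen with earlier results of these data known. Genes named are the members, members of the lists (up to 6 called ones each, by size of change in wildtype), the features next to each member, and for each member the 5 genes of highest Pearson's r over the 20 group means, among those with an average log2 CPM of at least 3. Replicate numbers did not pair the samples: same-numbered samples deviated together with every r over 0.1 in 2 of 36 comparisons, and samples of the same library set in 5 of 26. Alternatives were RLE scaling, library totals, no filter, DESeq2 1.42.0, the compared groups alone, a library set term, the replicate block, and the omission of every library singly. Leaving out the 5 libraries that deviated most from their groups was added after seeing the data. Sequences were handled with Biopython 1.88 in Python 3.11.15. Each SE was derived from the test, as the absolute log2 fold change divided by the square root of the F value, and is an approximation. Intervals were built from these SE values and cover the spread between libraries.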

Additional observations from a re-analysis of the deposited data

Results flagged for a closer look

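Each result here is a difference between strain states in the size of the heat response, or a departure from additivity, that was called in edgeR's quasi-likelihood F test. For HSP30 the response of -hsf1/msn2Δ/msn4Δ cells minus that of wildtype cells was -6.12 and -2.72 (log2) after 10 and 30 min at 37 °C, where 13.2% and 16.7% of genes were called lower. It was -8.59 and -8.57 after 10 and 30 min at 42 °C, where 7.92% and 14.9% were, and -8.59 was the lowest value of 6070 genes. The value of -2.72 lost its call without any of 8 of its 12 libraries, with -3.02 to -2.28 over all 12. These 8 were wildtype replicates 1 (-2.46) and 3 (-2.53) at 25 °C and 2 (-2.44) and 3 (-2.28) after heat, and -hsf1/msn2Δ/msn4Δ replicates 2 (-2.57) and 3 (-2.35) at 25 °C and 1 (-2.50) and 2 (-2.51) after heat.

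The HSP30 response of msn2Δ/msn4Δ cells minus that of wildtype was -4.20 after 10 min at 42 °C, where 6.59% of genes were called lower. That of -hsf1 cells minus wildtype was -3.26 after 30 min at 42 °C, where 2.6% of genes were called lower. This call was lost without -hsf1 replicate 1 at 25 °C (-2.25) or replicate 1 (-3.01) or 2 (-3.31) after heat, or without wildtype replicate 1 (-3.11) or 3 (-3.13) at 25 °C or 2 (-3.25) or 3 (-2.95) after heat. Non-additivity of HSP30 was -4.37 after 30 min at 37 °C and -4.14 after 30 min at 42 °C.

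For YRO2 the response after 10 min at 42 °C minus that of wildtype was -2.69 in -hsf1/msn2Δ/msn4Δ and -2.53 in msn2Δ/msn4Δ cells, where 7.92% and 6.59% of genes were called lower. The first lost its call without wildtype replicate 1 at 25 °C (-2.39), wildtype replicate 2 after heat (-2.36) or -hsf1/msn2Δ/msn4Δ replicate 3 at 25 °C (-2.06). The second lost it without msn2Δ/msn4Δ replicate 3 at 25 °C (-1.90) or 2 after heat (-2.30), or wildtype replicate 1 at 25 °C (-2.21) or 2 (-2.18) or 3 (-2.40) after heat.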

How the results depend on the processing

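Values are log2. Across comparisons the all-gene median shifted by -0.552 to 1.01 with library totals and by -0.135 to 0.208 with RLE scaling. HSP30 had 14 called heat responses in every setting.

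With library totals, calls were lost for the heat response of MRH1 in -hsf1 after 10 min (-0.94) and in msn2Δ/msn4Δ (-0.83) and -hsf1/msn2Δ/msn4Δ cells (-0.88) after 30 min at 37 °C. Calls were also lost for YRO2 after 10 min at 37 °C in msn2Δ/msn4Δ against wildtype (-1.05) and -hsf1/msn2Δ/msn4Δ against -hsf1 (-1.27), and for the response differences of HSP30 in -hsf1 after 30 min at 42 °C (-2.36) and -hsf1/msn2Δ/msn4Δ after 30 min at 37 °C (-2.25) and of YRO2 in msn2Δ/msn4Δ (-1.97) and -hsf1/msn2Δ/msn4Δ (-1.77) after 10 min at 42 °C, which left 0 for YRO2. Calls were gained for YRO2 in -hsf1/msn2Δ/msn4Δ after 10 min at 37 °C (1.74) and 30 min at 42 °C (1.49), and for 3 state differences of MRH1, -hsf1 against wildtype (1.002) and -hsf1/msn2Δ/msn4Δ against msn2Δ/msn4Δ (1.29) after 30 min at 42 °C and -hsf1/msn2Δ/msn4Δ against -hsf1 (1.36) after 30 min at 37 °C. Signs turned for uncalled values, namely MRH1 and YRO2 in -hsf1 against wildtype (0.061 after 10 min at 37 °C, 0.29 after 30 min at 42 °C), MRH1 and YRO2 in -hsf1/msn2Δ/msn4Δ against msn2Δ/msn4Δ (0.13 after 30 min at 37 °C, 0.085 and 0.64 at 42 °C), MRH1 in -hsf1/msn2Δ/msn4Δ against -hsf1 (0.26 after 10 min at 37 °C), and the HSP30 response difference of msn2Δ/msn4Δ after 30 min at 37 °C (0.14).

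With the compared groups alone, calls were lost for MRH1 in -hsf1 after 10 min (-1.05) and msn2Δ/msn4Δ after 30 min at 37 °C (-0.99) and for the YRO2 response differences after 10 min at 42 °C (-2.50 in msn2Δ/msn4Δ, -2.68 in -hsf1/msn2Δ/msn4Δ), with 1 left for YRO2. They were gained for YRO2 in -hsf1/msn2Δ/msn4Δ against -hsf1 after 30 min at 37 °C (-1.01) and the HSP30 response difference of msn2Δ/msn4Δ after 10 min at 37 °C (-2.55). With a library set term MRH1 in -hsf1 after 10 min at 37 °C lost its call (-0.99), and MRH1 in -hsf1/msn2Δ/msn4Δ (-1.01) and HSP30 in -hsf1 against wildtype (-1.80) after 10 min at 37 °C gained one. DESeq2 and RLE scaling each gave MRH1 in -hsf1/msn2Δ/msn4Δ after 10 min at 37 °C as called (-1.02). DESeq2 also called HSP30 in -hsf1 against wildtype after 10 min at 37 °C (-1.71) and the HSP30 response differences of -hsf1 after 10 min at 37 °C (-2.73) and 42 °C (-3.30) and of msn2Δ/msn4Δ after 10 min at 37 °C (-2.46). Without a filter no call changed.

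Replicate numbers do not pair the samples. The replicate block added 9 calls and lost none. These were YRO2 after 30 min at 42 °C in msn2Δ/msn4Δ (1.06) and -hsf1/msn2Δ/msn4Δ (1.01), MRH1 (-1.01) and YRO2 (1.40) in -hsf1/msn2Δ/msn4Δ after 10 min at 37 °C, HSP30 (-1.88, 10 min) and YRO2 (1.12, 30 min) in -hsf1 against wildtype at 37 °C, and the HSP30 response differences of -hsf1 after 10 min at 37 °C (-2.90) and 42 °C (-3.47) and of msn2Δ/msn4Δ after 10 min at 37 °C (-2.57).

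Without the 5 farthest libraries, calls were lost for MRH1 in -hsf1 after 10 min at 37 °C (-0.86), YRO2 in msn2Δ/msn4Δ against wildtype after 10 min at 37 °C (-1.22), and the HSP30 response differences of -hsf1 after 30 min at 42 °C (-2.25) and -hsf1/msn2Δ/msn4Δ after 30 min at 37 °C (-2.48). They were gained for MRH1 in -hsf1/msn2Δ/msn4Δ after 10 min at 37 °C (-1.12) and 42 °C (-1.10). Signs turned for YRO2 in -hsf1/msn2Δ/msn4Δ after 10 min at 42 °C (-0.24) and MRH1 in -hsf1 against wildtype after 10 min at 37 °C (0.28).

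With each library left out in turn, scaling was computed anew, so a range need not hold the full value. HSP30 heat changes in -hsf1/msn2Δ/msn4Δ after 10 min at 37 °C ran from -0.0999 to 0.61. HSP30 in -hsf1 against wildtype ran from -2.43 to -1.22 after 10 min at 37 °C (called without -hsf1 replicate 3), -2.88 to -1.84 after 10 min and -2.67 to -2.10 after 30 min at 42 °C. HSP30 in -hsf1/msn2Δ/msn4Δ against msn2Δ/msn4Δ after 30 min at 37 °C ran from -2.20 to -1.37. The HSP30 response differences ran from -3.26 to -1.56 (10 min at 37 °C, called without -hsf1 25 °C replicate 2), -3.73 to -2.13 (10 min at 42 °C, called without -hsf1 replicate 3) and -3.71 to -2.25 (30 min at 42 °C) in -hsf1, -0.69 to 0.32 in msn2Δ/msn4Δ (30 min at 37 °C) and -3.02 to -2.28 in -hsf1/msn2Δ/msn4Δ (30 min at 37 °C). Non-additivity of HSP30 after 30 min at 42 °C ran from -4.65 to -3.84, with 1 to 2 of 4 such values called. The HSP30 change between 10 and 30 min at 37 °C in -hsf1 ran from 0.61 to 1.86.

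MRH1 heat changes after 10 min at 37 °C ran from -1.31 to -0.79 in -hsf1/msn2Δ/msn4Δ (called without 25 °C replicate 2 or heated replicate 3), -1.13 to -0.86 in msn2Δ/msn4Δ, -1.26 to -0.86 in -hsf1 and -0.94 to 0.097 in wildtype. They ran from -1.14 to -0.95 in msn2Δ/msn4Δ after 30 min at 37 °C, and from -1.13 to -0.78 in -hsf1/msn2Δ/msn4Δ after 10 min at 42 °C (called without 25 °C replicate 1 or 2 or heated replicate 1 or 3). MRH1 state differences, of which 0 to 1 were called, ran from -0.13 to 0.40 (-hsf1/msn2Δ/msn4Δ against msn2Δ/msn4Δ), -0.76 to 0.28 (-hsf1 against wildtype) and -1.15 to -0.11 (msn2Δ/msn4Δ against wildtype) after 10 min, and 0.48 to 1.10 (-hsf1/msn2Δ/msn4Δ against -hsf1, called without -hsf1 replicate 1) and -0.61 to 0.27 (-hsf1 against wildtype) after 30 min at 37 °C.

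YRO2 heat changes ran from 0.96 to 2.06 (10 min at 37 °C), -0.27 to 0.79 and 0.56 to 1.70 (10 and 30 min at 42 °C) in -hsf1/msn2Δ/msn4Δ, and -0.17 to 0.95 and 0.74 to 1.67 (10 and 30 min at 42 °C) in msn2Δ/msn4Δ. YRO2 state differences after 10 min at 37 °C ran from -2.18 to -1.36 (-hsf1/msn2Δ/msn4Δ against -hsf1) and -1.92 to -1.22 (msn2Δ/msn4Δ against wildtype). At 42 °C they ran from -0.61 to 0.21 and -0.36 to 0.095 after 10 and 30 min (-hsf1/msn2Δ/msn4Δ against msn2Δ/msn4Δ) and -0.56 to 0.11 after 30 min (-hsf1 against wildtype). The YRO2 response differences after 10 min at 42 °C ran from -3.17 to -2.06 in -hsf1/msn2Δ/msn4Δ and -3.02 to -1.90 in msn2Δ/msn4Δ, with 0 to 4 of 12 called. Of the list counts after 30 min at 42 °C, the 1 weak acid gene called lower in -hsf1 was lost without 25 °C replicate 2 or heated replicate 2 or 3. The causes of these shifts were not tested.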
